A study of Danio rerio with 24 samples.

Results

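The purine and one-carbon genes of iridophores described here are 5 zebrafish genes, pnp4a, hprt1l, adka, mthfd1l and phgdh, out of 21 genes made up of the 20 in a list of regions near iridophore genes drawn up by the study and of pnp4a. Each gene was measured as a window of CpGs, an interval at or near the gene widened by 25 kb on each side, in whole genome bisulfite sequencing (WGBS). The adka interval is itself a region of that list, and the mthfd1l interval lies inside another. Those of hprt1l and phgdh run between the outermost regions listed at these genes. The 5 windows held 4053 of the 16909511 CpGs with at least 5 reads in all 4 libraries, and 433 of the 1742416 tiles of 500 bp with at least 3 such CpGs. The windows lie on chromosomes 11 (pnp4a), 25 (hprt1l), 13 (adka), 20 (mthfd1l) and 9 (phgdh), in coordinates of danRer10. An annotation of danRer10 was not used here, so exons, introns and promoters inside the windows are not named.

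The 4 libraries were iridophores and melanophores, sorted after Percoll density centrifugation from mlphaj120 larvae at 4 to 5 dpf, and late NCCs at 24 hpf and early NCCs at 15 somites, sorted as GFP-positive cells from Tg(crestinA:EGFP) embryos. NCCs are neural crest cells, the embryonic progenitors of both pigment cell types. mlphaj120 fish carry a mutation in melanophilin that reduces the dispersion of melanosomes in melanophores, and in the transgene a part of the crestin locus drives EGFP. Comparing a pigment cell with NCCs therefore also compares 2 strains, larvae with embryos, and 2 ways of collecting cells. These cannot be told apart from the cell type, whereas iridophores and melanophores came from the same strain and stage. Early and late NCCs differed in stage and, per the study's methods, in how the embryos were dissociated. Each library is 1 file in which the authors combined 2 biological replicates, so no value has a spread between replicates and every test compares the reads of 2 libraries. Because a read that spans several CpGs is counted at every one of them, the p-values are too small and the intervals too narrow.

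Iridophores reflect light from stacks of crystals built mainly of guanine, a purine base, so these cells are known for a heavy demand for purines. Purines are built on a ring whose atoms come from amino acids and from one-carbon units carried by folate, and they can also be recovered from nucleosides and free bases by salvage enzymes. In vertebrate genomes most CpGs are methylated, while promoters rich in CpGs are usually unmethylated in every cell type and enhancers tend to lose methylation in the cells that use them. Methylation of a CpG is read after bisulfite treatment, in which unmethylated cytosine is converted and methylated cytosine is kept.

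Over the CpGs with at least 5 reads in all libraries, the mean methylation level was 80.8% in iridophores, 81.2% in melanophores, 84.2% in late NCCs and 85.1% in early NCCs, at a mean of 29.9 to 44.6 reads per CpG. In the pnp4a window the level was 67.5% in iridophores and 73.6% in melanophores, against 81.3% in late NCCs. The mthfd1l window was similar, with 74.1% in iridophores and 80.8% in melanophores, against 87.8% in late NCCs. In the adka window the levels were 69.8% in iridophores, 76.1% in melanophores and 80.1% in late NCCs. Whole windows at these 3 genes thus differed by 10.3 to 13.8 points between iridophores and late NCCs, against 3.34 points over the genome. The adka and mthfd1l windows are centred on regions that the study listed, and the pnp4a window on a marker of iridophores. Their excess over the genome is therefore given as a description. The hprt1l window, the longest, stood at 74.6% in iridophores, 75.7% in melanophores and 78.6% in late NCCs. The phgdh window stood at 72.0% in iridophores, 73.0% in melanophores and 73.6% in late NCCs. The differences at these last 2 genes, 3.97 and 1.56 points, were close to or under that of the genome.

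A tile was called different between 2 libraries where its mean level differed by at least 30 points and the adjusted p of a two-sided Fisher's exact test on its reads was under 0.05, with Benjamini-Hochberg adjustment over all tiles of the genome. Between iridophores and late NCCs, 42 of the 433 tiles (9.70%) were called lower in iridophores and 0 higher. Over the genome 2.67% of tiles were called lower and 0.0848% higher by the same rule. The share called lower was 20.3% at pnp4a (13 of 64 tiles), 20.3% at mthfd1l (15 of 74) and 12.3% at adka (8 of 65). It was 3.47% at hprt1l (5 of 144) and 1.16% at phgdh (1 of 86), so these windows lay near or below the genome. The median difference over the 433 tiles was -1.13 points, against -2.04 over all tiles of the genome. The lower level of iridophores was thus gathered in a minority of tiles. In 220 of the 433 tiles the level exceeded 80% in all 4 libraries.

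Between melanophores and late NCCs, 16 of the 433 tiles (3.70%) were called lower in melanophores and 0 higher, against 2.65% lower and 0.0646% higher over the genome. They were 5 tiles at pnp4a, 5 at hprt1l, 3 at adka, 3 at mthfd1l and 0 at phgdh. Iridophores and melanophores were compared directly as well. There 25 tiles (5.77%) were called lower in iridophores and 1 higher, against 0.671% lower and 0.541% higher over the genome. The 25 tiles were 8 at pnp4a, 9 at mthfd1l, 6 at adka, 2 at hprt1l and 0 at phgdh. When each tile entered the test with its mean reads per CpG in place of the sum over its CpGs, which removes repeated counting of a read and also drops separate reads over distant CpGs of the tile, 13 tiles were called lower in iridophores (5 at pnp4a, 4 at adka, 4 at mthfd1l, 0 at hprt1l) and 0 higher, against 0.304% lower over the genome. Counted in this way, 33 tiles were called lower in iridophores than in late NCCs (1.94% over the genome), 14 lower in melanophores than in late NCCs (2.16%) and 0 lower in late than in early NCCs (0.0031%).

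**Figure D1:**
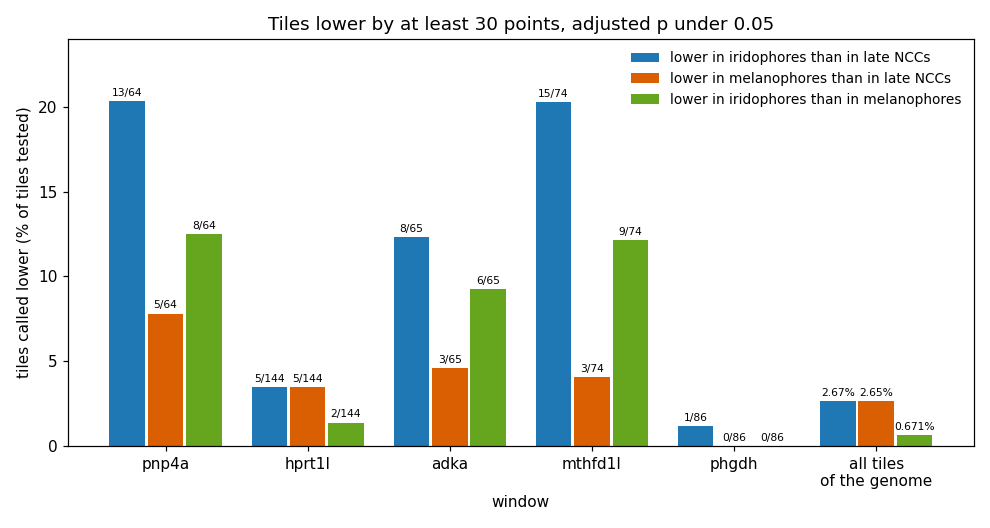
Percent of tiles called lower (y axis) in each of the 5 windows and over all tiles of the genome (x axis), for iridophores against late NCCs, melanophores against late NCCs and iridophores against melanophores, with counts over the bars. The bars for iridophores against late NCCs reach 20.3% at pnp4a and mthfd1l and 12.3% at adka, against 2.67% over the genome, while those of hprt1l (3.47%) and phgdh (1.16%) do not stand out. These bars include tiles of the pnp4a interval (10 of 13 called) and of regions listed by the study (17 of 25). Outside both, 15 of 395 tiles (3.80%) were called. With mean reads per CpG in the test, 8 of the 395 (2.03%) were called there, against 1.94% over the genome. For iridophores against melanophores, 5 of the 395 (1.27%) were called, against 0.671% over the genome. With mean reads per CpG it was 1 (0.25%), against 0.304%.

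Where the 42 tiles lie bears on how the counts can be read. The study had listed 16 regions at hprt1l, adka, mthfd1l and phgdh among regions whose methylation or accessibility changed in its own samples, these libraries included, and its list does not give the kind of change for each region. The pnp4a interval is not part of that list. The study reported a highly accessible region at pnp4a in its iridophore ATAC-seq. It also showed pnp4a as an iridophore marker whose promoter has low methylation, so the interval is not independent of these libraries. Tiles that overlap the listed regions or the interval held 27 of the 42 calls (17 of 25 tiles in listed regions, 10 of 13 in the pnp4a interval). A separate list of the study, described as annotating its regions by methylation and accessibility, was not used here. The listed regions were thus not split by the kind of change they were chosen for. The lower level of iridophores in them, and in the pnp4a interval, is therefore given as a description. Outside the interval and the listed regions, 15 of 395 tiles (3.80%) were called lower in iridophores than in late NCCs, 7 (1.77%) lower in melanophores than in late NCCs and 5 (1.27%) lower in iridophores than in melanophores. The shares over the genome were 2.67%, 2.65% and 0.671%, in the same order. With mean reads per CpG in the test, 8 of the 395 tiles (2.03%) were called lower in iridophores than in late NCCs, against 1.94% over the genome. By the same test 1 tile (0.25%) was called lower in iridophores than in melanophores, against 0.304% over the genome. The shares outside the chosen regions differed between genes. At mthfd1l 7 of 66 tiles (10.6%) were called lower in iridophores than in late NCCs and 4 of 66 (6.06%) lower in iridophores than in melanophores. With mean reads per CpG in the test, 3 and 1 of these calls outside the listed regions of mthfd1l were kept. The shares lower in iridophores than in late NCCs were 5.88% at pnp4a (3 of 51) and 5.17% at adka (3 of 58), with 3 and 1 calls kept. They were 1.20% at phgdh (1 of 83) and 0.73% at hprt1l (1 of 137).

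**Figure D2:**
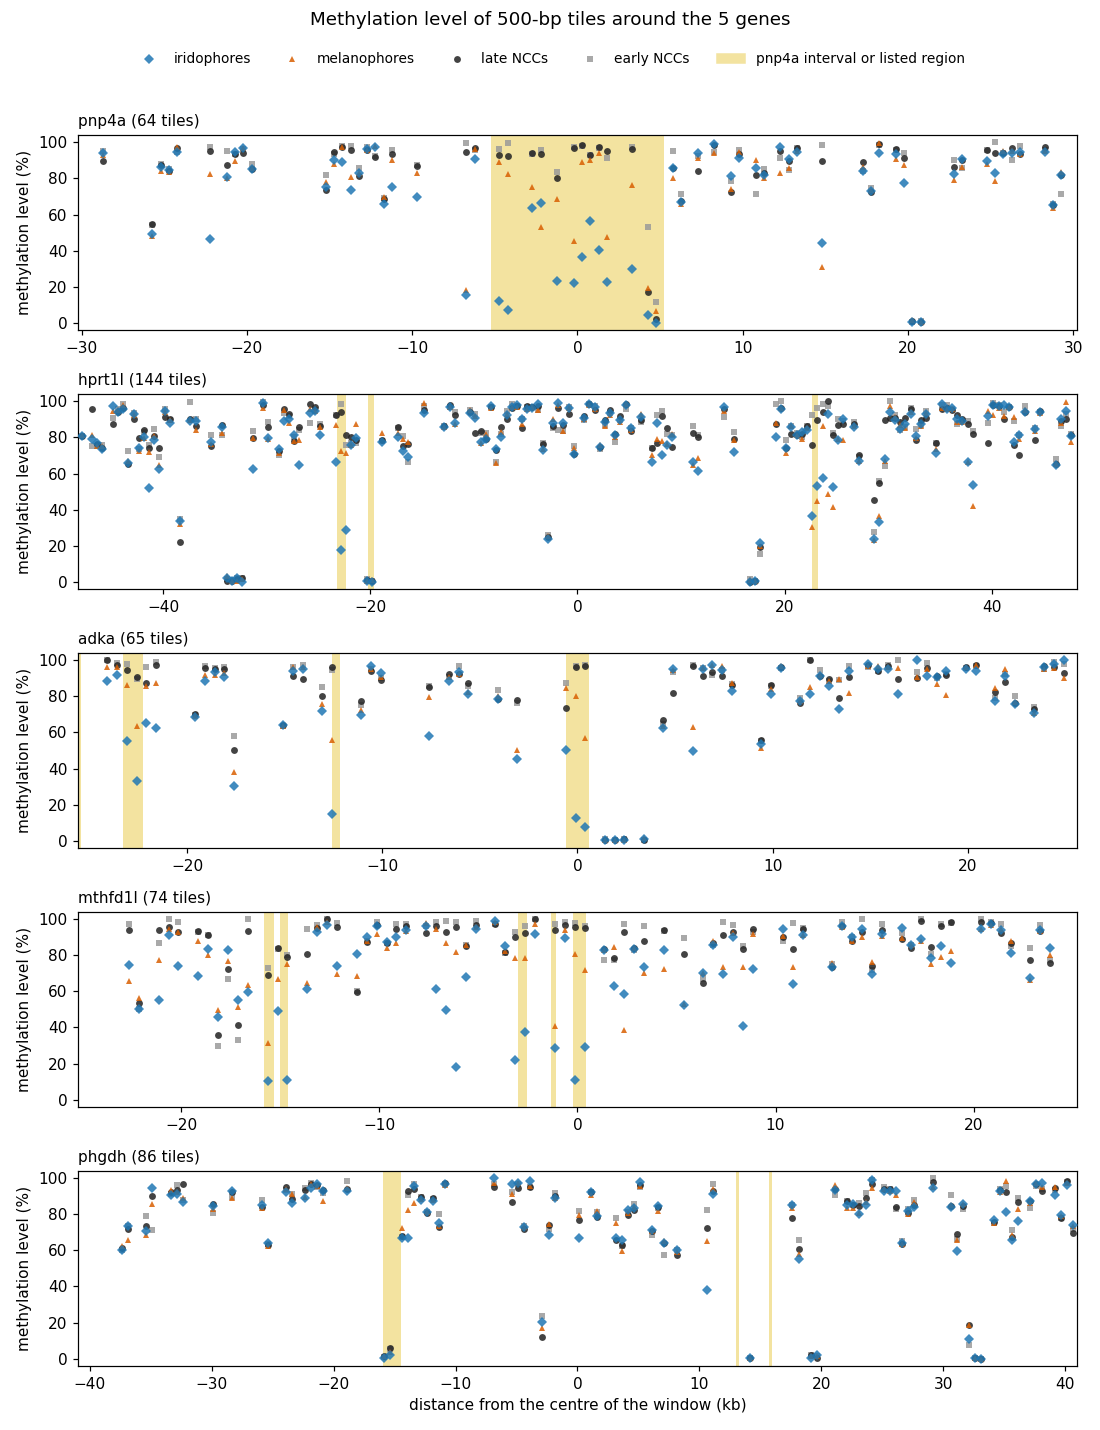
Methylation level (y axis, percent) of each tested 500-bp tile against its distance from the centre of the window in kb (x axis) for pnp4a, hprt1l, adka, mthfd1l and phgdh, in iridophores, melanophores, late NCCs and early NCCs, with the pnp4a interval and the listed regions shaded. Most tiles stand high in all 4 libraries, and iridophores stand apart in the shaded pnp4a interval, in shaded regions of adka and mthfd1l, and in few tiles elsewhere.

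pnp4a encodes a purine nucleoside phosphorylase, the enzyme that splits guanosine and inosine into the free base and a sugar phosphate, and it is a marker of iridophores. Its interval, chr11:24050750-24061200, covers 10451 bp with 101 usable CpGs. The mean level over the interval was 30.1% in iridophores and 63.6% in melanophores, against 80.6% in late NCCs and 84.4% in early NCCs. The share of methylated reads was 38.8 points lower in iridophores than in melanophores (95% Newcombe interval 36.5 to 41.0 points, counting error only). Single CpGs ran from 0 to 97.0% in iridophores and from 0 to 100% in melanophores and late NCCs, and their median was 20.9% in iridophores, 83.3% in melanophores and 95.8% in late NCCs. Of the 101 CpGs, 46 were under 20% in iridophores, 20 in melanophores, 14 in late NCCs and 7 in early NCCs. The iridophore level was lower than that of late NCCs by at least 30 points at 67 CpGs and the melanophore level at 23.

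The interval was not lowered evenly. At its left end 2 neighbouring tiles were nearly unmethylated in iridophores alone. In chr11:24051501-24052000 the level was 6.92% in iridophores and 82.5% in melanophores, against 92.5% in late NCCs and 99.5% in early NCCs. This was the largest difference between iridophores and late NCCs in the window, and iridophores were also lower than melanophores by 75.5 points (adjusted p = 9.62e-31, Fisher's exact test with Benjamini-Hochberg adjustment). In the tile beside it, chr11:24051001-24051500, the level was 12.1% in iridophores and 89.1% in melanophores, against 93.1% in late NCCs, so iridophores were lower than melanophores by 77.03 points (adjusted p = 5.62e-41, same exact test). No other tile of the window separated the pigment cells as far. Each of these tiles holds 4 CpGs. Both were picked as extremes of the window and lie in the pnp4a interval, so their p-values are given as a description.

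In the middle of the interval both pigment cells were low at some tiles. In chr11:24055501-24056000, with 11 CpGs, the level was 22.4% in iridophores and 45.2% in melanophores, against 96.8% in late NCCs, and both falls were called. In chr11:24057501-24058000 it was 22.9% in iridophores and 47.7% in melanophores, against 95.2% in late NCCs, and both were again called. Between these tiles melanophores stayed high, as in chr11:24057001-24057500, where the level was 40.4% in iridophores, 93.9% in melanophores and 97.2% in late NCCs. In chr11:24059001-24059500, the tile with most CpGs (14), it was 30.02% in iridophores, 76.5% in melanophores and 96.3% in late NCCs. There iridophores were lower than melanophores by 46.4 points (adjusted p = 5.15e-70, same exact test). Melanophores had the lower level of the pigment cells in 1 tile of the interval. In chr11:24053501-24054000, with 3 CpGs, the level was 66.6% in iridophores and 53.1% in melanophores, against 93.6% in late NCCs. The melanophore fall was called, though not with mean reads per CpG, and the iridophore difference was not, and neither were the 13.4 points between the pigment cells (adjusted p = 0.587, same exact test).

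The right end of the interval was low before the pigment cell stage. In chr11:24060001-24060500 the level was 4.25% in iridophores, 19.4% in melanophores, 16.9% in late NCCs and 53.1% in early NCCs. This was the only tile of the 433 called between late and early NCCs (36.2 points lower in late NCCs, adjusted p = 2.59e-13, same exact test), and over the genome 0.0894% of tiles were called lower and 0.0217% higher in late NCCs. The call was lost when tiles were moved by 250 bases and when mean reads per CpG entered the test. The next tile, chr11:24060501-24061000, stood at 0% in iridophores, 6.48% in melanophores, 2.03% in late NCCs and 11.8% in early NCCs, with no call. Both tiles were thus the least methylated of the interval in late NCCs.

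**Figure D3:**
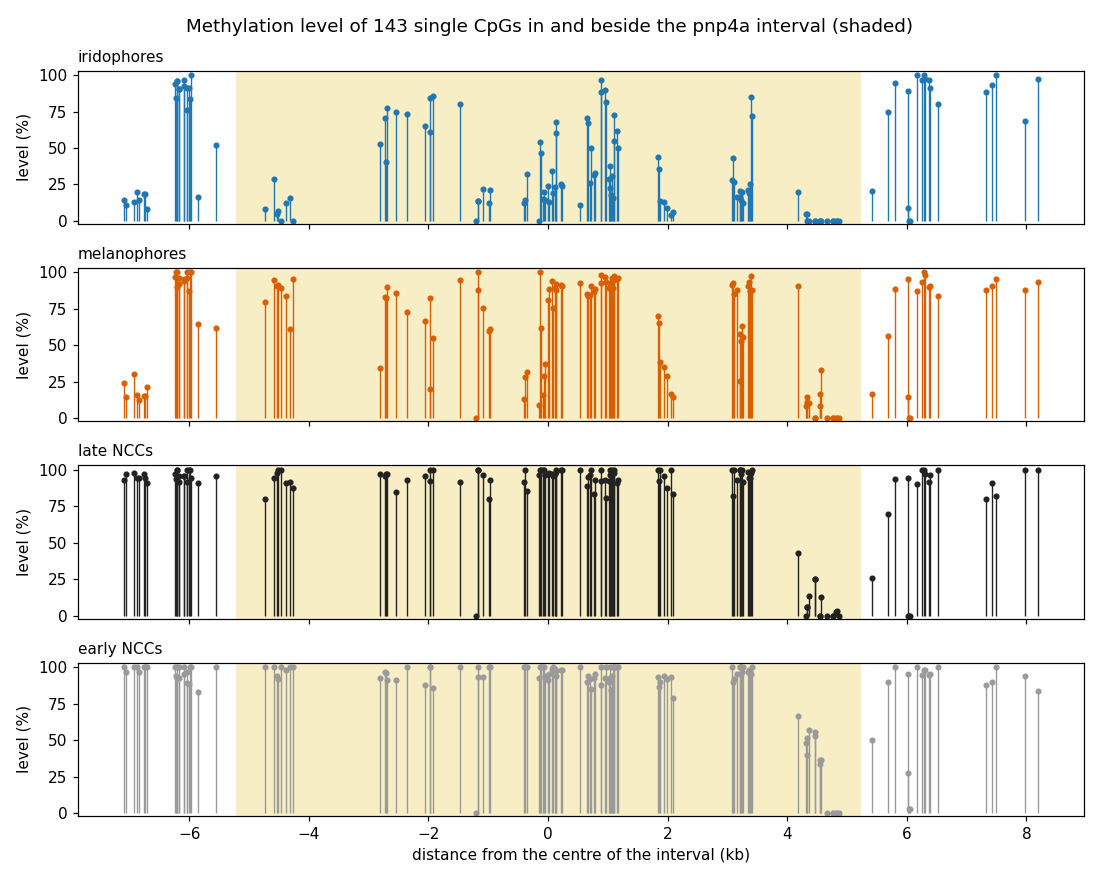
Methylation level (y axis, percent) of 143 single CpGs in and beside the pnp4a interval (shaded) against distance from its centre in kb (x axis), in 1 panel each for iridophores, melanophores, late NCCs and early NCCs. Iridophores are near 0 at the left end and low over most of the interval, and melanophores are low in narrower stretches. Late NCCs are low mainly at the right end. There early NCCs are first at intermediate levels and then at 0% in the last CpGs of the interval.

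Outside the interval, 3 tiles of the pnp4a window were called lower in iridophores than in late NCCs. The largest difference was in chr11:24049001-24049500 past the left end of the interval, with 15.4% in iridophores and 18.5% in melanophores, against 94.8% in late NCCs. Both pigment cells were lower than late NCCs there (by 79.4 points in iridophores, adjusted p = 6.94e-61, and by 76.3 points in melanophores, adjusted p = 5.23e-70, same exact test), and the 3.03 points between them were not called (adjusted p = 0.823, same exact test). In chr11:24070501-24071000 the level was 44.4% in iridophores and 31.0% in melanophores, against 89.6% in late NCCs, again with both falls called. In chr11:24033501-24034000 it was 46.5% in iridophores, 82.7% in melanophores and 95.1% in late NCCs. This last tile was called between iridophores and melanophores (36.2 points lower in iridophores, adjusted p = 4.17e-12, same exact test), and that call was lost with mean reads per CpG.

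hprt1l is related to hypoxanthine phosphoribosyltransferase, which in mammals returns the free bases hypoxanthine and guanine to the nucleotide pool. The study listed 3 regions at it, and the levels in each were different in kind. Region 1, chr25:36509892-36510796 with 21 usable CpGs, had 16.2% in iridophores and 72.9% in melanophores, against 91.6% in late NCCs. Its share of methylated reads was 53.5 points lower in iridophores than in melanophores (95% interval 48.6 to 57.9), and the iridophore level was lower by at least 30 points than that of melanophores at 18 of the 21 CpGs. Region 2, chr25:36512880-36513488 with 28 CpGs, had at most 1.05% in any library. Region 3, chr25:36555748-36556305 with 21 CpGs, ran the other way from region 1, with 43.7% in iridophores and 34.7% in melanophores, against 86.5% in late NCCs. Its share of methylated reads was 11.9 points higher in iridophores than in melanophores (95% interval 8.32 to 15.5).

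Within region 1 the tile chr25:36510001-36510500, with 14 CpGs, had both the largest difference of the window from late NCCs and the largest from melanophores. Its level was 17.6% in iridophores and 72.5% in melanophores, against 94.2% in late NCCs. The difference of 54.8 points between the pigment cells was called (adjusted p = 4.96e-39, Fisher's exact test with Benjamini-Hochberg adjustment), but not with mean reads per CpG. The other called tile of region 1 also lost this call with mean reads per CpG. As an extreme picked inside a listed region, the tile chr25:36510001-36510500 has a p-value that is only a description. Around region 3 the tiles changed within a short distance. In chr25:36556501-36557000, the only tile outside the listed regions called lower in iridophores than in late NCCs, the level was 57.6% in iridophores and 86.2% in melanophores, against 93.9% in late NCCs. In the next tile, chr25:36557001-36557500, it was 92.9% in iridophores and 48.8% in melanophores, against 100% in late NCCs. This tile of 3 CpGs was the only one of the 433 called higher in iridophores than in melanophores (by 44.1 points, adjusted p = 1.17e-06, same exact test), and it was not called with mean reads per CpG. In chr25:36557501-36558000 and chr25:36571001-36571500, both outside the listed regions, melanophores were called lower than late NCCs, by 39.9 and 39.8 points, and iridophores, lower by 28.9 and 28.2 points, missed the minimum of 30.

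adka encodes an adenosine kinase, which turns adenosine into AMP and so keeps purines inside the cell. The study listed 4 regions at it. Region 1, chr13:25040577-25040882 with 13 CpGs, lies across the edge of the window and had 13.7% in iridophores and 19.1% in melanophores, against 76.4% in late NCCs. In region 2, chr13:25043041-25044059 with 33 CpGs, the level was 44.1% in iridophores and 76.5% in melanophores, against 92.0% in late NCCs. In region 3, chr13:25053754-25054178 with 7 usable CpGs, it was 26.8% in iridophores and 65.6% in melanophores, against 96.5% in late NCCs. Region 4, chr13:25065745-25066937 with 16 usable CpGs, had 16.6% in iridophores and 77.8% in melanophores, against 94.3% in late NCCs. Regions 2 to 4 were thus lower in iridophores than in melanophores, by 35.6, 40.8 and 65.0 points of the share of methylated reads (95% intervals 31.6 to 39.4, 33.8 to 47.2 and 60.4 to 69.0). With mean reads per CpG in the test, the called tiles of region 2 lost the call between the pigment cells. Those of regions 3 and 4 kept it. Region 1 was low in both pigment cells, with a difference of 7.92 points (95% interval 2.98 to 12.6).

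Region 4 held the tile with the largest difference from late NCCs of all 433. In chr13:25066501-25067000, with 3 CpGs, the level was 7.74% in iridophores and 56.8% in melanophores, against 96.5% in late NCCs and 97.5% in early NCCs. The tile beside it, chr13:25066001-25066500 with 10 CpGs, had 12.7% in iridophores and 80.01% in melanophores, against 96.5% in late NCCs. There iridophores were lower than melanophores by 67.3 points (adjusted p = 6.24e-85, Fisher's exact test with Benjamini-Hochberg adjustment). Both tiles were picked as extremes of the window and lie in a listed region, so this p-value is given as a description. Directly to the right of this region, from chr13:25067658 to chr13:25069970, a stretch of 62 CpGs was unmethylated in all 4 libraries, at 0.49 to 0.75%. The low iridophore levels of region 4 thus lay beside a stretch that carried almost no methylation in any of the cell types. In region 3, the tile chr13:25053501-25054000 had 14.9% in iridophores and 55.9% in melanophores, against 96.1% in late NCCs, and melanophores were called lower than late NCCs there, though not when CpGs over 4 times the median reads were left out (27.0 points lower).

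Outside the listed regions of adka, 3 tiles were called lower in iridophores than in late NCCs. In chr13:25072001-25072500, with 14 CpGs, the level was 49.5% in iridophores and 63.2% in melanophores, against 96.9% in late NCCs, and both falls were called (47.4 points in iridophores, adjusted p = 8.54e-69, and 33.7 points in melanophores, adjusted p = 3.33e-53, same exact test). In chr13:25044501-25045000, next to region 2, it was 62.6% in iridophores, 87.5% in melanophores and 97.4% in late NCCs, a call that was lost with mean reads per CpG. None of the tiles outside the listed regions of adka was called between iridophores and melanophores.

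phgdh encodes phosphoglycerate dehydrogenase, the enzyme that commits an intermediate of glycolysis to the synthesis of serine, the main donor of one-carbon units. Its window held fewer called tiles than those of the other 4 genes. It was also the window with the lowest share of usable CpGs, 837 of 1492 covered in any library. Of its 163 possible tiles 86 were tested, so the rest of the window is not described. The other windows were also seen only in part. Tested there were 64 of 120 possible tiles at pnp4a, 144 of 192 at hprt1l, 65 of 101 at adka and 74 of 100 at mthfd1l. Of the 3 regions listed by the study, region 1, chr9:48486660-48488119 with 30 usable CpGs, was nearly free of methylation, with 1.42% in iridophores, 2.998% in melanophores, 4.74% in late NCCs and 3.90% in early NCCs. Regions 2 and 3 (chr9:48515606-48515829 and chr9:48518323-48518581) held no CpG listed in any library, so their methylation could not be measured. No tile that overlaps these regions was called in any comparison. The 1 called tile of the window was chr9:48513001-48513500, with 14 CpGs and 37.9% in iridophores, 64.9% in melanophores, 72.4% in late NCCs and 82.2% in early NCCs. Iridophores were lower than late NCCs by 34.5 points there (adjusted p = 1.95e-24, same exact test), a call that was lost with mean reads per CpG. The 27.0 points between iridophores and melanophores were under the minimum. The tile with the largest difference between melanophores and late NCCs, chr9:48488501-48489000, had 66.7% in iridophores and 82.6% in melanophores, against 92.9% in late NCCs, and was not called in any comparison.

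mthfd1l encodes the mitochondrial formyltetrahydrofolate synthetase, which in mammals releases formate, the form in which one-carbon units leave the mitochondria for purine synthesis. The study listed 6 regions at it, 5 of them inside the window. Region 5, chr20:26598166-26598826 with 10 CpGs, had 12.7% in iridophores and 76.8% in melanophores, against 95.8% in late NCCs. Region 3, chr20:26595388-26595822 with 10 CpGs, had 22.8% in iridophores and 76.3% in melanophores, against 91.1% in late NCCs. Region 2, chr20:26583391-26583759 with 9 usable CpGs, had 41.1% in iridophores and 82.4% in melanophores, against 88.4% in late NCCs. At these 3 regions the share of methylated reads was 51.1 to 54.9 points lower in iridophores than in melanophores. The 95% intervals together run from 42.8 to 60.9 points. As mean levels the differences were less alike, with 41.3 points in region 2, 53.5 in region 3 and 64.1 in region 5. With mean reads per CpG in the test, the called tiles of region 3 lost the call between the pigment cells. Those of regions 2 and 5 kept it. Region 4, chr20:26597063-26597297 with 8 CpGs, was low in both pigment cells, with 27.9% in iridophores and 35.0% in melanophores, against 94.4% in late NCCs. Region 1, chr20:26582571-26583077 with 10 usable CpGs, had 8.24% in iridophores and 27.5% in melanophores, against 64.7% in late NCCs. Its CpGs were uneven, with 3 under 20% in each of early NCCs, late NCCs and melanophores, and a median of 88.6% in late NCCs. Region 6, chr20:26651481-26652202 with 24 usable CpGs, lies outside the window and had at most 0.83% in any library.

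Regions 3, 4 and 5 of mthfd1l lie next to each other. The middle region was low in both pigment cells while those on either side were low in iridophores and high in melanophores. In the tile chr20:26598001-26598500, inside region 5, the level was 10.8% in iridophores and 80.7% in melanophores, against 95.8% in late NCCs. This tile of 8 CpGs had the largest difference of the window in both comparisons. Iridophores were lower than melanophores there by 70.0 points (adjusted p = 3.28e-32, Fisher's exact test with Benjamini-Hochberg adjustment). It was picked for these extremes inside a listed region, so the p-value is given as a description.

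With reads summed over each tile, mthfd1l was also the gene with most calls away from the chosen regions. There 7 of 66 tiles (10.6%) were called lower in iridophores than in late NCCs, against 2.67% over the genome. With mean reads per CpG it did not lead, with 3 of 66 (4.55%) against 3 of 51 (5.88%) at pnp4a and 1.94% over the genome. In 3 adjoining tiles, chr20:26591001-26592500, iridophores were lower than both late NCCs and melanophores. In the first of them, with 13 CpGs, the level was 61.1% in iridophores and 94.4% in melanophores, against 96.3% in late NCCs. In the second, with 6 CpGs, it was 49.4% in iridophores and 86.6% in melanophores, against 92.8% in late NCCs. In the last, with 5 CpGs, it was 18.1% in iridophores and 82.1% in melanophores, against 95.7% in late NCCs. The mean level in iridophores was thus lower in each next tile along this stretch, while the means of melanophores and late NCCs stayed above 80%. Single CpGs did not fall steadily in iridophores, with 47.6% at chr20:26591469 and 100% at chr20:26591721 and chr20:26591766. In the last tile iridophores were lower than late NCCs by 77.6 points (adjusted p = 2.85e-68) and lower than melanophores by 64.0 points (adjusted p = 2.20e-44, same exact test). A further tile, chr20:26606501-26607000, was also called in both comparisons, with 40.7% in iridophores and 73.3% in melanophores, against 83.5% in late NCCs. With mean reads per CpG, of these 4 tiles only the last of the 3 adjoining ones kept its calls, in both comparisons. Melanophores were the lower pigment cell in 1 of the 7 tiles, chr20:26600501-26601000, with 58.4% in iridophores and 38.5% in melanophores, against 92.9% in late NCCs. The 19.9 points between them were under the minimum for a call.

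**Figure D4:**
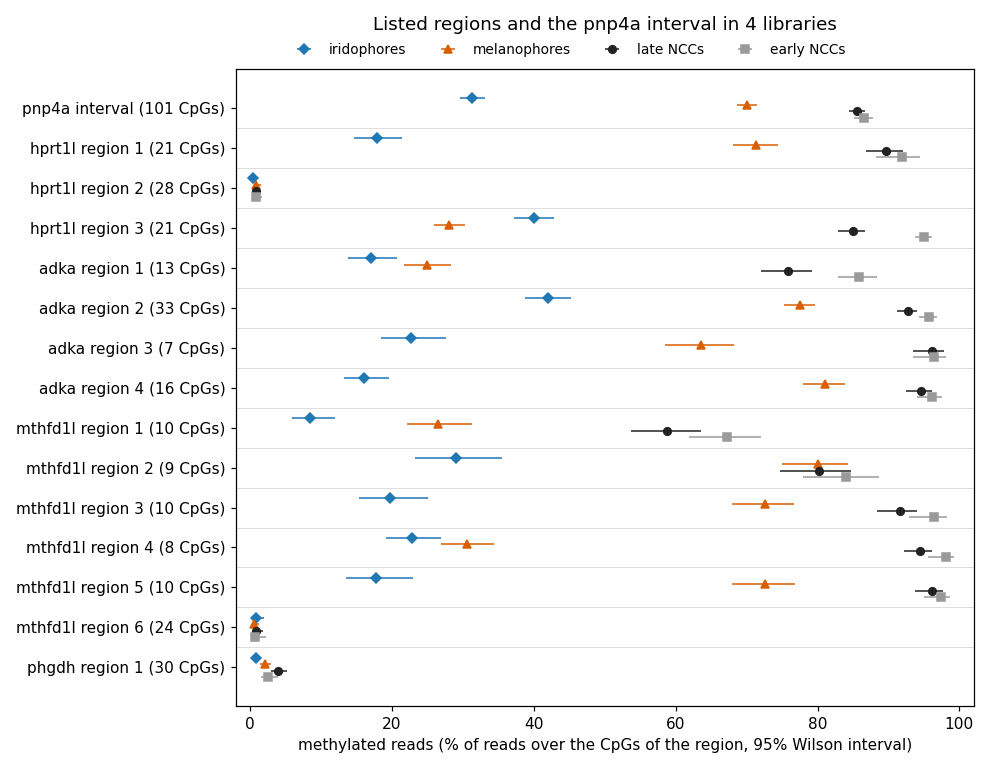
Share of methylated reads (x axis, percent, with 95% Wilson intervals that cover counting error only) in the pnp4a interval and in each listed region of hprt1l, adka, mthfd1l and phgdh that holds a usable CpG (y axis), in iridophores, melanophores, late NCCs and early NCCs. Iridophores lie left of melanophores in most rows, but hprt1l region 3 has the opposite order, and hprt1l region 2, mthfd1l region 6 and phgdh region 1 lie near 0 in all 4 libraries.

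Across hprt1l, adka, mthfd1l and phgdh, the 16 listed regions fell into 3 kinds. In 2 no CpG could be measured, 3 were under 10% in all 4 libraries, and 11 were at 50% or more in late NCCs. All 11 were lower in iridophores than in late NCCs by at least 30 points, with a median difference of -66.5 points. Melanophores were lower than late NCCs by at least 30 points in 5 of the 11, with a median of -19.0 points. The iridophore level was under the melanophore level in 10 of the 11, by at least 30 points in 7, with a median of -38.7 points. The study chose these regions for a change in methylation or accessibility in its own samples, these libraries included. Its methods set a minimum of 30 points for a methylation change, so these counts are a description. The shares of tiles called lower over the genome, in the same order, were 2.67%, 2.65% and 0.671%, though tiles and regions are unlike units.

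The same list holds regions at psat1 and psph, which encode the enzymes that follow phgdh in serine synthesis, and at mthfd1b, a cytosolic enzyme of folate metabolism. Of their 7 regions, 5 were at 50% or more in late NCCs, and 4 of these 5 were lower in iridophores by at least 30 points. Melanophores were lower than late NCCs by that much in 1 of the 5. The median differences were -52.1 points between iridophores and late NCCs, -10.7 between melanophores and late NCCs and -21.5 between iridophores and melanophores. psph region 2, for example, had 41.4% in iridophores and 90.2% in melanophores, against 95.7% in late NCCs. In the 25 regions of the other genes in the list, 19 were at 50% or more in late NCCs, with medians of -61.0 points between iridophores and late NCCs, -41.8 between melanophores and late NCCs and -12.3 between iridophores and melanophores. Of these 19, 16 were lower than late NCCs by at least 30 points in iridophores and 13 in melanophores. The iridophore level was under the melanophore level in 14 of the 19, by at least 30 points in 4. These are descriptions of chosen regions, and the sets were not tested against each other.

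Constitutively unmethylated stretches were counted in windows of unlike length, from 50426 bp at mthfd1l to 96414 bp at hprt1l. Their numbers are therefore not compared between genes, and no share over the genome was computed. Runs of at least 10 CpGs under 20% in all 4 libraries numbered 9 in the 5 windows, with 4 at phgdh, 3 at hprt1l, 1 at pnp4a, 1 at adka and 0 at mthfd1l. They spanned 529 to 2313 bp and 20 to 62 CpGs. Mean levels in these runs were at most 1.20% in any library, so the pigment cells and NCCs did not separate there. The run at phgdh from chr9:48486759 to chr9:48487344 lay inside listed region 1, and the run at hprt1l from chr25:36512372 to chr25:36513750 covered listed region 2. Listed region 6 of mthfd1l, with 24 CpGs under 20% in all 4 libraries, lies outside its window and was not counted.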

How the data were processed

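The study measured DNA methylation by WGBS in 8 samples, of 24 in the series. Its ATAC-seq and mRNA-seq samples were not analysed here. Per the labels and the study's methods, the authors used Cutadapt for trimming, Bismark for alignment to danRer10, Picard MarkDuplicates against duplicates, and the Bismark extractor with a custom script for calls, and they combined 2 biological replicates per cell type. Tool versions are not given in the sources used here. As deposited by the authors, the methylation level of a CpG is a fraction, methylated reads over all reads, and the read count is the coverage after removal of duplicates, without normalization. Positions are those of the deposited files, and whether they are counted from 0 or 1 is not given in the sources used here.

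Methylated reads were taken as level times reads, a product at most 0.0044 away from a whole number. Mean coverage was 24.0 reads per covered CpG in early NCCs, 30.3 in late NCCs, 25.2 in iridophores and 35.2 in melanophores. CpGs with at least 5 reads in all 4 libraries were kept, and tiles of 500 bp with at least 3 of them. The level of a tile, region or window is the mean over its CpGs. Methylated and unmethylated reads summed over a tile were compared by two-sided Fisher's exact test with Benjamini-Hochberg adjustment over all tiles of the genome, and a call needed an adjusted p under 0.05 and 30 points, the minimum difference of the study's methods. Wilson intervals (95%) of shares and Newcombe intervals of differences cover counting error only. Python 3.11.15, NumPy 2.4.6, Numba 0.67.0, SciPy 1.17.1, pandas 2.3.3 and Matplotlib 3.10.9 were used.

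The members and lists were chosen with earlier results of these data known. Named for each gene were every listed region and the tiles with the largest fall in iridophores, the largest fall in melanophores and the largest excess of melanophores over iridophores, over the whole window and outside the chosen regions; other tiles were named after their values were seen. Tiles were thus named for extreme values or after being seen, so the p-values given with them are a description. Of the markers sox9b, twist1a, tyr and pnp4a, only pnp4a could be checked. No replicate could be left out, because replicates are combined. The alternatives were other minimums of reads, CpGs and points, CpGs covered in the 2 libraries compared only, moved tiles, pooled levels, mean reads per CpG and CpGs of very high coverage left out.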

Additional observations from a re-analysis of the deposited data

Results flagged for a closer look

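The direct comparison of iridophores with melanophores called 25 tiles (5.77%) lower and 1 higher in iridophores (Fisher's exact test with Benjamini-Hochberg adjustment over all tiles). Over the genome 0.671% were called lower and 0.541% higher. Outside the pnp4a interval and the listed regions, 5 of 395 tiles (1.27%) were called lower. With mean reads per CpG in the test, 13 tiles of the 5 windows were called lower and 0 higher, against 0.304% lower over the genome. Flagged here are 5 of the tiles called with summed reads. They are the tile where melanophores exceeded iridophores most at pnp4a, hprt1l, adka and mthfd1l, and the 1 called higher. In them the difference from late NCCs was not the same in the 2 pigment cells. The differences, iridophores minus melanophores, were -77.03 points in the pnp4a tile chr11:24051001-24051500, -54.8 points in the hprt1l tile chr25:36510001-36510500, -67.3 points in the adka tile chr13:25066001-25066500 and -70.0 points in the mthfd1l tile chr20:26598001-26598500. In the hprt1l tile chr25:36557001-36557500, with 3 CpGs, the difference was 44.1 points in the other direction. The first of these tiles lies in the pnp4a interval and the next 3 lie in regions that the study had listed near iridophore genes, so their direction is given as a description, while the last lies outside the listed regions. Both tiles of hprt1l lost the call when mean reads per CpG entered the test. The part of the combined replicates in these differences was not tested, because the replicates cannot be separated.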

How the results depend on the processing

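No paired analysis was possible because the authors combined the replicates of each cell type, and no replicate could be left out for the same reason. With a minimum difference of 20 points, 64 tiles of the 5 windows were called between iridophores and late NCCs (42 with 30 points), 27 between melanophores and late NCCs (16) and 2 between late and early NCCs (1). With mean reads per CpG in the test, 13 were called between iridophores and melanophores (26) and 0 between late and early NCCs, as also with tiles moved by 250 bases. Other counts stayed within 1.5 times, from 33 to 48 between iridophores and late NCCs, from 12 to 21 between melanophores and late NCCs and from 20 to 35 between iridophores and melanophores.

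The level of the adka window differed between iridophores and late NCCs by -9.03 points with CpGs of at least 1 read, -11.2 points with at least 10 reads and -11.5 points as a share of reads (-10.3 as reported), and between melanophores and late NCCs by -4.76 points as a share of reads (-3.997). The mthfd1l window differed by -12.9 points between iridophores and late NCCs (-13.7) and by -5.99 points between melanophores and late NCCs (-7.01) with CpGs of at least 1 read, and by -7.79 points in the last comparison as a share of reads. The other 53 window values moved by less than their counting error, as did 160 region values, while 20 region values moved by more. No called value changed direction. The tiles named by the rule were followed in the comparison each was named for, with tiles in place. Of their values, 199 kept their side of the threshold, 6 gained a call and 4 lost it. Losses of other tiles and comparisons are given in the text for some of them only. A call without such a remark did not always hold.

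CpGs near 0 in both pigment cells, high in both NCC libraries and between highly methylated neighbours were left out as an alternative chosen after seeing the data. None lay in the 5 windows (147 over the genome), so no count changed and this alternative tests nothing there. CpGs near 0 in NCCs between highly methylated neighbours, such as chr20:26594684, were not left out. Strain, stage and collection change together with the step from NCCs to pigment cells and cannot be told apart from it. A single CpG had a median of 17 to 29 reads, so single levels are imprecise.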
